A study of Mus musculus with 4 samples.

Results

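Kcnj2 and Kcnj16 are the protein-coding genes that border the gene desert upstream of Sox9, the transcription factor gene that directs cartilage formation. They are 2 of 18106 protein-coding genes that could be read in both mouse annotations used here, and they were chosen by name and position, with earlier results of these data known. Each gene was described by its promoter peak, which is an ATAC-Seq peak with its summit within 1 kb of the transcription start site (TSS), and by all peaks from 100 kb before Kcnj16 to 100 kb after Kcnj2. That window held 40 of the 485134 peaks in the 4 libraries.

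ATAC-Seq reads chromatin accessibility from where the Tn5 transposase inserts its adapters. All 4 libraries came from primary chondrocytes of newborn mouse rib cartilage, used within 2 passages after collagenase digestion. Cho had 2 replicates, whose label gives no genotype. WT had 1 library, and so did the deletion, labelled E160(delta/delta);E308(delta/delta), a homozygous germline loss of both Sox9 enhancers that was made by CRISPR editing and is present in every cell. The study describes WT and deletion mice as littermates in a figure legend, and no source used here states how many animals gave each library. Between WT and the deletion, library and genotype therefore cannot be told apart, and values are compared between these 2 libraries without a p-value. Where 4 values are listed without names, they stand for Cho replicate 1, then Cho replicate 2, then WT, then the deletion.

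Kcnj2 encodes Kir2.1, an inward rectifier potassium channel that holds cells near their resting potential, and loss of its function in people causes Andersen-Tawil syndrome, with arrhythmia, periodic paralysis and skeletal anomalies. Kcnj16 encodes Kir5.1, which forms a poor channel alone and works mainly in heteromers with Kir4.1 in kidney and glia. Both genes lie in a regulatory domain that adjoins that of Sox9, and duplications that cross the boundary between the domains can bring Kcnj2 under limb enhancers of Sox9, as in Cooks syndrome.

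Both genes lie on the plus strand of chromosome 11 in the same order. In NCBIM37 (mm9), Kcnj16 spans chr11:110829347-110889282 (ENSMUSG00000051497.8, 59.9 kb) and Kcnj2 spans chr11:110927478-110938135 (ENSMUSG00000041695.2, 10.7 kb). The gap between them was 38.2 kb, and the Sox9 TSS lay 1716 kb beyond the Kcnj2 TSS. The Cho replicate 2 peaks were read in GRCm38 (mm10), where the TSSs of Kcnj16 and Kcnj2 are at 110968033 and 111066164. The 2 TSSs were 98131 bp apart in both builds, so sites could be compared between libraries by distance from the TSS without converting any coordinate.

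The sequences of the promoters show how unlike the neighbours are at the base level. Each is given as the 250 bases before the TSS in NCBIM37, plus strand, 5′ to 3′, at chr11:110927228-110927477 for Kcnj2 and chr11:110829097-110829346 for Kcnj16. The RefSeq GRCm38 promoter table held the same letters for both genes. Capitals mark matches, on either strand, to 6 short motifs. These are the E-box, written CACGTG, the CCAAT box, spelled as its name, the GC box, written GGGCGG, the TATA box, written TATAAA, the AP-1 site, written TGANTCA, and the Sox core, written ACAAAG.
Kcnj2 promoter: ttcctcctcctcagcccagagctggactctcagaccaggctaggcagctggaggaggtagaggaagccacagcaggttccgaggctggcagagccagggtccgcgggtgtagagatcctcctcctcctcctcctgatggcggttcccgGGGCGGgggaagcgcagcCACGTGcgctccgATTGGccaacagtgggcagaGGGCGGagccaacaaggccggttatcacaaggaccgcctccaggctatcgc
Kcnj16 promoter: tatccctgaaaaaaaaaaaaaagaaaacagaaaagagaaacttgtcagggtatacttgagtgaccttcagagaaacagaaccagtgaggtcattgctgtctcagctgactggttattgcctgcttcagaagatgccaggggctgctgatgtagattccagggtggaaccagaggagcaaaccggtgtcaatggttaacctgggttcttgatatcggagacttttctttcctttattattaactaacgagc

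The Kcnj2 stretch held GC boxes at −102 to −97 and −51 to −46, an E-box at −84 to −79 and a CCAAT box at −71 to −67, counted from the TSS, with no overlap between them. Over the same 250 bases of 18103 promoters, 42.0% held a GC box, 6.76% the E-box and 35.5% a CCAAT box. The Kcnj16 stretch matched none of the 6 motifs, which says only that these letters are not in this window. The windows also differed in CpG dinucleotides, the DNA step whose density marks the promoters of broadly used genes. From 250 bases before the TSS to 50 bases into the gene, Kcnj2 had 18 CpG at a GC content of 66.7%, and Kcnj16 had 3 at 44.3%. The median over 18103 promoters was 13.

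Away from the promoters, the window had 3 sites called in all 4 libraries, shown here as 201 bases around the WT summit in NCBIM37, plus strand, with the same marking. They lay at chr11:110742436-110742636, chr11:110804202-110804402 and chr11:110926043-110926243.
site 86.8 kb before Kcnj16: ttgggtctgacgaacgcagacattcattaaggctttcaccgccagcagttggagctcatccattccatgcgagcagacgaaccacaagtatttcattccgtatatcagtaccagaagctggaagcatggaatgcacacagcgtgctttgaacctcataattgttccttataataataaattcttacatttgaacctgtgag
site 25.0 kb before Kcnj16: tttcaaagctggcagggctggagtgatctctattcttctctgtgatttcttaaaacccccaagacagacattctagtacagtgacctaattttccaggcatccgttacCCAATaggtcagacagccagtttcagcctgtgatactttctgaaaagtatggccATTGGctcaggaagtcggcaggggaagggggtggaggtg
site 1.3 kb before Kcnj2: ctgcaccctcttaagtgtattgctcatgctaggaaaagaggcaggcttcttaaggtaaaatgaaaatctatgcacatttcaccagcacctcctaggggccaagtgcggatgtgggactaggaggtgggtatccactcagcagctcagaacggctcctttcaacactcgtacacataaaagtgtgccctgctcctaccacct

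A further 3 sites were called in every library but WT, and they are shown around the deletion summit because they include the sites where the Cho replicates differed most. They lay at chr11:110797163-110797363, chr11:110915252-110915452 and chr11:110916613-110916813.
site 32.1 kb before Kcnj16: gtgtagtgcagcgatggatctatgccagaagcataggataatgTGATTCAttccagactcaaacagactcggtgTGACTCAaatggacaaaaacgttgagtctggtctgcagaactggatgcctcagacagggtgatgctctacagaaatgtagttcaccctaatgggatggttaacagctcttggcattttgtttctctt
site 12.1 kb before Kcnj2: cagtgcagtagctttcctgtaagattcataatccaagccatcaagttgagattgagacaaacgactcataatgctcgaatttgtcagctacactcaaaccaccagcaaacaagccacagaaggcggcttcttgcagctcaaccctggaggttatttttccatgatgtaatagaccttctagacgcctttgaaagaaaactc
site 10.8 kb before Kcnj2: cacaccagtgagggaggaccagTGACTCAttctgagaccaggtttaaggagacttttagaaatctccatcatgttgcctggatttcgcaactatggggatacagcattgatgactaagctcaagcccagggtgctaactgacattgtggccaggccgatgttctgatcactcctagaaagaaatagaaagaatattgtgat

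The site at 25.0 kb held 2 CCAAT boxes, the site at 32.1 kb held 2 AP-1 matches and the site at 10.8 kb held 1. The sites at 86.8, 1.3 and 12.1 kb held none of the 6 motifs. Windows of the same length around 169574 deletion peaks held an AP-1 match in 23.1% and a CCAAT box in 23.5%. A match is a description of the letters and does not show that a factor binds.

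The 4 peak lists differed in size and depth, which bears on every count below. They held 76242, 148330, 90971 and 169591 peaks. The files give no read totals, and the depth implied by the background of each list ran from 4628 tags per Mb in WT through 6840 and 8694 in Cho replicate 1 and the deletion to 20819 in Cho replicate 2. The highest pileup below that of every called peak was 3.65, 3.58, 8.31 and 4.79 times background. By this limit WT was the list least able to show a weak site. Larger pileups can also go uncalled where the local background is higher. Over all genes, 58.6%, 64.8%, 62% and 67.8% of promoters had a peak. Promoter peaks were found at 6 of 7 chondrocyte markers in Cho replicate 2, WT and the deletion, all but Comp. In Cho replicate 1 they were found at 2 of 7, Sox9 and Col2a1. The nearest Comp summit lay just outside the 1 kb window, at 1142, 1146, 1162 and 1196 bp from its TSS. Of 11 markers of other cells, 4, 4, 5 and 5 had a promoter peak in the 4 libraries, among them Col1a1, Col1a2 and Dcn of fibroblasts and bone in all 4. Pecam1 of endothelium was called in all but Cho replicate 2 (7.18, 8.31 and 16.5 in fold enrichment) and Myod1 of muscle in all but Cho replicate 1 (7.73, 5.15 and 6.76). Cdh5 of endothelium, Ckm of muscle, Ptprc and Tyrobp of blood and Krt14 and Krt5 of keratinocytes had none in any library. The part of these differences in the values at Kcnj2 and Kcnj16 was not tested. The intervals of E308 and E160 were read beside the labels. E308 was overlapped by peaks of fold enrichment up to 23.2, 30.0 and 15.4 in Cho replicate 1, Cho replicate 2 and WT. In the deletion, 1 peak of 3.07 lay inside the E308 interval. E160 was overlapped by peaks up to 11.4, 15.2 and 13.4, against none in the deletion. The study describes both peaks as not detectable in the deletion, and the exact ends of the deleted stretches were not read here.

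The first question was whether the promoters of the pair were open in rib chondrocytes. The Kcnj2 promoter had a peak in all 4 libraries, and the Kcnj16 promoter in none. Over all genes, 58.6%, 64.8%, 62% and 67.8% of promoters were called. Of all promoters, 52.7% had a peak in every library and 28.2% in none, so neither pattern was rare.

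The fold enrichment of the Kcnj2 promoter, which is the summit pileup over the background that the peak caller used, was 29.6 and 25.6 in the Cho replicates, 16.6 in WT and 19.9 in the deletion. The Cho mean was 27.6 ± 2.83 (SD, n = 2). Both Cho replicates lay above WT and the deletion on this scale. The median of all called promoters was 12.2, 17.6, 12.7 and 12.4, so Kcnj2 stood above the middle of its list in every library, above 88.8%, 78.5%, 78.2% and 94.3% of them. The −log10 q-value of the peak was 87.4, 169, 34.4 and 59.1.

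The order of the libraries turned when the summit pileup was divided by the library background. This removes both the local backgrounds that 3 of the 4 lists used and the added 1, which weighs more where counts are low. The part of each in the turn was not tested. The summit held 69 and 160 tags in the Cho replicates, 33 in WT and 58 in the deletion. Over the library background these were 50.4 (95% Poisson interval 39.2 to 63.8), 81.8 (69.6 to 95.5), 91.4 (62.9 to 128.4) and 92.7 (70.4 to 119.8), with intervals that cover counting error only. On this scale Cho replicate 1 was the lowest, its interval lay below those of Cho replicate 2 and the deletion, and the intervals of Cho replicate 2, WT and the deletion overlapped. The Cho mean became 66.1 ± 22.1 (SD, n = 2). Cho replicate 1 was also the list with 1 constant background. The smallest peak width was 200 bp in Cho replicate 1, against 94, 78 and 72 bp in the other lists. The part of either in its low value was not tested. The 31 summits of Cho replicate 1 on the mitochondrial genome lay in 2 intervals, against 3, 0 and 0 intervals in the other lists. By this measure Kcnj2 stood above 89.6%, 58.6%, 57.2% and 79.2% of called promoters, closer to the middle than by fold enrichment in all lists but that of Cho replicate 1.

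**Figure D1:**
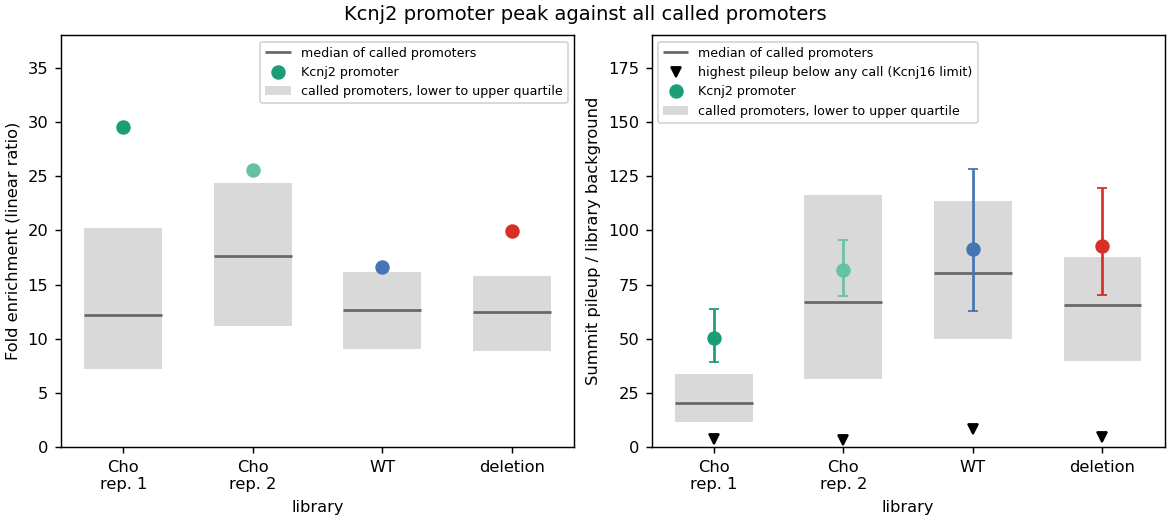
The Kcnj2 promoter peak in each of the 4 libraries, as fold enrichment in 1 panel and as summit pileup over library background with 95% Poisson intervals in the other, beside the middle range of the called promoters of the same library, with triangles at the highest pileup below that of every called peak. Kcnj2 runs from 16.6 to 29.6 in fold enrichment and from 50.4 to 92.7 in pileup over background, with the libraries in a different order in each.

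The summit sat at nearly the same place in every library, at −73, −55, −55 and −78 bp from the TSS. The stretch these summits span holds the CCAAT box printed above and lies between the E-box and the GC box at −51 to −46. The peaks were 988, 619, 228 and 426 bp wide, at chr11:110926985-110927972 in Cho replicate 1, chr11:110927313-110927540 in WT and chr11:110927113-110927538 in the deletion (NCBIM37) and at chr11:111065634-111066252 in Cho replicate 2 (GRCm38). All 4 spanned the TSS, reaching from the upstream flank into the transcribed part of the gene. In WT a separate summit with a fold enrichment of 4.40 lay at −929 bp, where no other library had one with 1 summit kept per interval. Cho replicate 1 listed 9 summits in the window from 100 kb before Kcnj16 to 100 kb after Kcnj2, of which 8 were kept.

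The Kcnj16 promoter had no peak by any definition tried. The nearest summit to the TSS was at −25010, −25071, −25045 and −13315 bp, the last in the deletion. Kcnj16 has 4 annotated transcript starts in each annotation, the farthest 55827 bp into the gene, and none had a summit within 1 or 2 kb. The summit closest to any of these starts was 25.0 kb away in Cho replicate 1 and WT, but 3.63 kb away in Cho replicate 2 and 5.34 kb away in the deletion, both inside introns. A promoter pileup at or below 3.65, 3.58, 8.31 or 4.79 times background could not have been listed, so weak opening at Kcnj16 was not detectable at this depth.

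The CpG counts put these calls beside those of promoters of like composition. Of the 414 promoters with 18 CpG, as Kcnj2 has, 87.9%, 92.0%, 91.8% and 96.6% had a peak, and 83.1% had one in all 4. Of the 999 promoters with 3 CpG, as Kcnj16 has, the shares were 14.4%, 30.6%, 18.4% and 28.4%, and 61.9% had none in any library. An open Kcnj2 promoter and an uncalled Kcnj16 promoter were thus the more frequent outcome for their CpG counts.

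**Figure D2:**
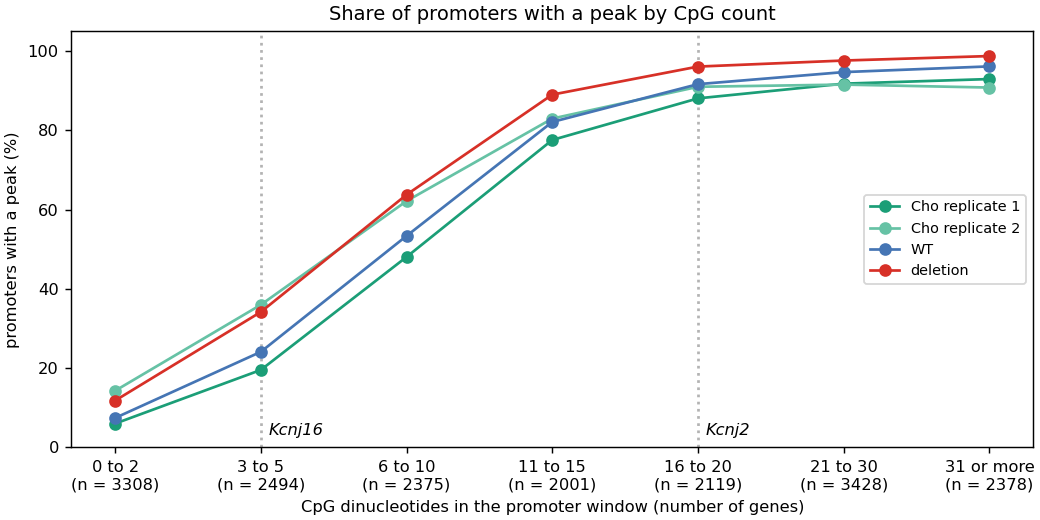
The share of promoters with a peak (vertical axis, percent) in each library, by the number of CpG in the promoter window (horizontal axis, with the number of genes in each bin), with the CpG counts of Kcnj2 and Kcnj16 marked. The share rises from between 5.99% and 14.3% at 0 to 2 CpG to between 90.8% and 98.7% at 31 CpG or more, and Kcnj16 falls in a low bin and Kcnj2 in a high one.

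Beyond the promoters, the question was which other stretches around the pair were open. The 308.8 kb window held 8 and 11 peaks in the Cho replicates, 6 in WT and 15 in the deletion, with a median fold enrichment of 12.5, 6.09, 6.34 and 5.53. The median over all peaks of each list was 6.33, 7.93, 6.86 and 6.25, so the window stood above its list in Cho replicate 1 alone. Peaks reaching a fold enrichment of 10 numbered 5, 3, 2 and 2, given without a share over all peaks. When summits within 200 bp of one another were joined, the 40 peaks made 20 sites, of which 4 were called in all libraries, 3 in 3 libraries, 2 in 2 and 11 in a single library. The 11 were 6 of the deletion, 2 of WT, 2 of Cho replicate 2 and 1 of Cho replicate 1.

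Most of the peaks lay before the Kcnj2 TSS. Upstream of Kcnj16 there were 4, 3, 2 and 5 peaks. In the body of Kcnj16 there were 0, 3, 0 and 3, all intronic, and between the genes outside the Kcnj2 promoter 3, 3, 2 and 4. With 1 summit kept per interval, the Kcnj2 body held none in any library, although the promoter peaks reach into its start. Downstream of Kcnj2, on the side that faces Sox9, there were 0, 1, 0 and 2.

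**Figure D3:**
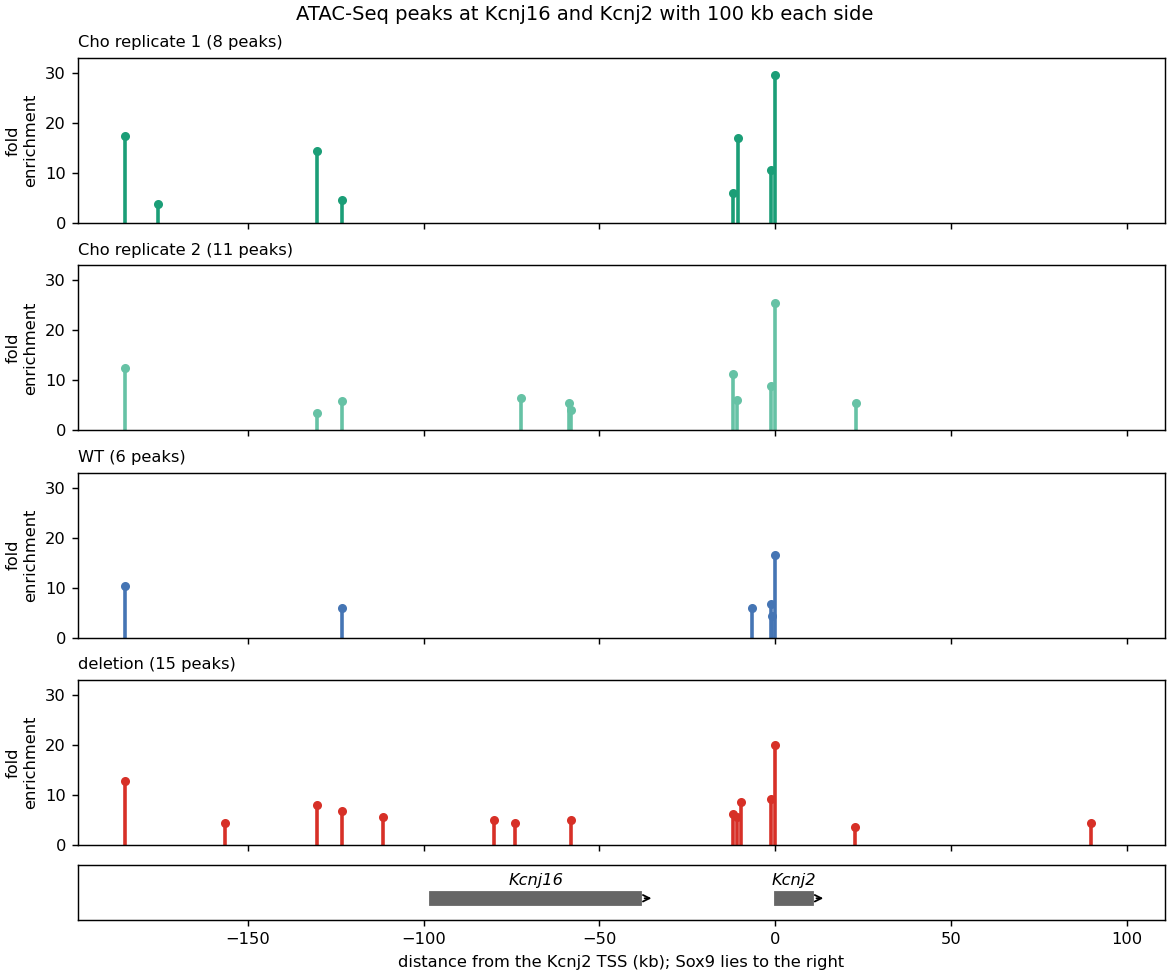
Every ATAC-Seq peak of the window in the 4 libraries, by distance from the Kcnj2 TSS (horizontal axis, kb) and fold enrichment (vertical axis), over a track of both genes. The Kcnj2 promoter peak is the tallest in each library, and no summit lies in the Kcnj2 body beyond the promoter in any library.

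The surroundings of the pair were sparse in peaks. With 100 kb on each side of its own body, Kcnj2 had 1.90, 3.80, 1.90 and 4.75 peaks per 100 kb, and Kcnj16 had 3.08, 4.23, 2.31 and 5.39. The medians over 18106 genes, each with the same flanks, were 4.35, 9.02, 5.76 and 10.4. Between 18.1% and 20.99% of genes had a lower density than Kcnj2, and between 20.7% and 32.4% a lower one than Kcnj16. Sox9 had 3.41, 13.6, 2.92 and 9.73 peaks per 100 kb, above the median in Cho replicate 2 alone.

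Of the sites called in every library, the one 86.8 kb before the Kcnj16 TSS had the highest fold enrichment away from a promoter. It is intergenic, at chr11:110742257-110743000 in Cho replicate 1 and chr11:110742360-110742848 in WT. Its fold enrichment was 17.3, 12.5, 10.3 and 12.7. Its pileup over background was 29.2, 18.4, 38.8 and 36.7. The site 1.3 kb before the Kcnj2 TSS reached a fold enrichment of 10.6, 8.85, 6.79 and 9.15 and a pileup over background of 17.5, 28.1, 36.0 and 41.5. By the second measure it stood above the 86.8 kb site in Cho replicate 2 and the deletion and below it in Cho replicate 1 and WT. It lies just outside the promoter window, and its peaks did not join the promoter peak in any library. The site 25.0 kb before the Kcnj16 TSS was the weakest of the shared sites, with a fold enrichment of 4.65, 5.75, 5.88 and 6.76 and a pileup over background of 7.31, 8.18, 19.4 and 15.97.

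The 3 sites called in every library but WT were also those, of the 7 sites the Cho replicates shared, where the replicates differed most. At 32.1 kb before Kcnj16, the fold enrichment was 14.4 and 3.38 in the Cho replicates and 7.99 in the deletion. At 10.8 kb before Kcnj2 it was 16.9, 6.09 and 5.53. At 12.1 kb before Kcnj2 it was 5.91, 11.2 and 6.15, so the higher replicate was not the same at every site. The pileup over background at 32.1 kb was 24.1 (16.6 to 33.9) in Cho replicate 1 and 4.60 (2.10 to 8.73) in Cho replicate 2, and at 10.8 kb it was 28.5 (20.3 to 39.0) and 8.69 (5.06 to 13.9). The Poisson intervals of the replicates did not overlap at either of these sites, nor at the Kcnj2 promoter (39.2 to 63.8 and 69.6 to 95.5). At 12.1 kb they did, with 9.50 (5.06 to 16.3) and 16.4 (11.2 to 23.1). Both Cho replicates shared 7 of the sites in all, the 4 common to every library and these 3.

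**Figure D4:**
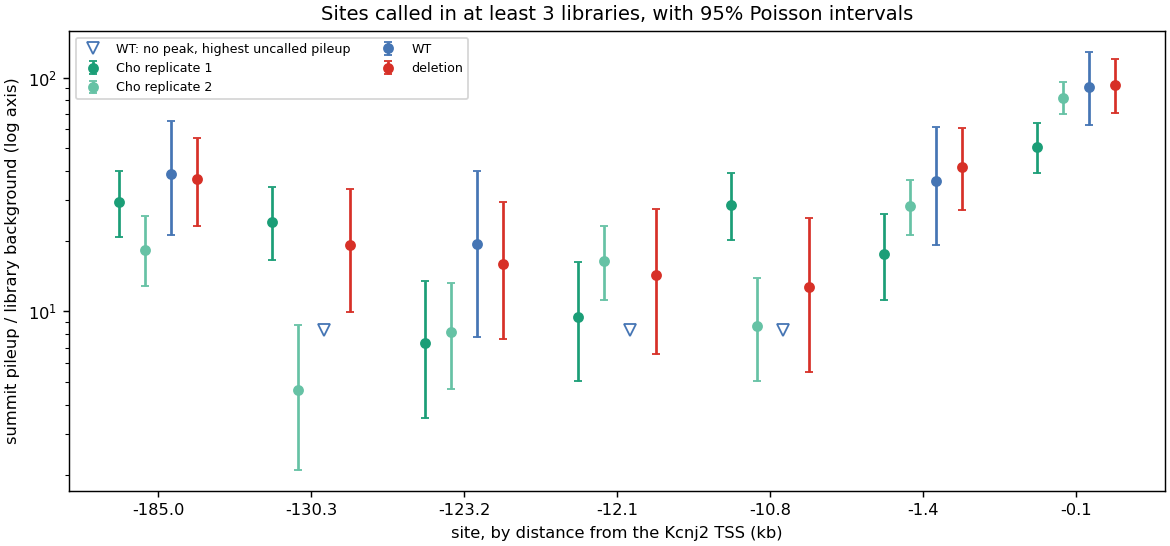
Summit pileup over library background (vertical log axis) with 95% Poisson intervals for the 7 sites called in at least 3 libraries, ordered by distance from the Kcnj2 TSS (horizontal axis, kb), 1 point per library. The Kcnj2 promoter is the highest site in each library, from 50.4 to 92.7, and WT has no point at 3 of the sites.

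The other sites were called in 1 or 2 libraries. Cho replicate 2 and the deletion shared a site in a Kcnj16 intron, 40.1 kb from its TSS, at fold enrichments of 4.06 and 4.92, and a site 22.7 kb after the Kcnj2 TSS, with 5.41 and 3.69. The deletion alone had intronic Kcnj16 sites 18.2 and 24.1 kb from the TSS, intergenic sites at −58.3 and −13.3 kb from the Kcnj16 TSS and at −9.91 and 89.8 kb from the Kcnj2 TSS, with fold enrichments from 4.30 to 8.61. Cho replicate 2 alone had Kcnj16 intronic sites 25.8 kb (6.43) and 39.5 kb (5.41) from the TSS. Cho replicate 1 alone had a site at −77.5 kb from the Kcnj16 TSS (3.80), and WT alone had sites at −6.51 kb (5.88) and −929 bp (4.40) from the Kcnj2 TSS. These counts are by summit, and the WT interval at −929 bp lies within the wider Cho replicate 1 peak whose summit is 1.3 kb before Kcnj2. None of the 11 single-library sites reached a fold enrichment of 10.

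WT and the deletion were then compared to see whether the neighbouring genes differed in a library that lacks both Sox9 enhancers. Of the 6 WT peaks in the window, 4 overlapped a deletion peak, or 66.7% (95% exact binomial interval 22.3 to 95.7), against 95.9% of all WT peaks. Of the 15 deletion peaks, 4 overlapped a WT peak, or 26.7% (7.79 to 55.1), against 49.4% of all deletion peaks. The interval for WT lay just below its background, and that for the deletion included its background. The WT share rests on 2 unmatched peaks, those at −6.51 kb and −929 bp from the Kcnj2 TSS.

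The window held 2.5 times as many peaks in the deletion as in WT, where the whole lists differed by 1.86 times. The deletion contributed 71.4% (47.8 to 88.7) of the 21 peaks of both libraries, against 65.1% over all peaks, a difference within the interval. With equal numbers of the strongest peaks taken from each library, the ratio in the window was 1.17.

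At the 4 shared sites the ratio of the deletion to WT in pileup over background lay between 0.824 and 1.15. The Kcnj2 promoter had a pileup over background of 91.4 in WT and 92.7 in the deletion, a ratio of 1.01 (95% interval 0.650 to 1.60). The ratio was 0.947 (0.467 to 1.99) at the site 86.8 kb before Kcnj16, 0.824 (0.283 to 2.55) at 25.0 kb before it and 1.15 (0.572 to 2.44) at 1.3 kb before Kcnj2. All 4 intervals included 1. Pooled over the 4 sites, 67 tags in WT and 117 in the deletion gave a ratio of 1.01 (0.740 to 1.38), so a change in either direction of the size within that interval could not be told from none.

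By fold enrichment the log2 ratio of the deletion to WT was 0.26 at the Kcnj2 promoter and 0.31, 0.20 and 0.43 at the sites 86.8 kb and 25.0 kb before Kcnj16 and 1.3 kb before Kcnj2. All 4 were positive, and so was the median over all shared peaks. The median was 0.29 at the 4 sites and 0.28 over all 87274 shared peaks. Over the 11188 promoters called in both libraries it was 0.01, so the 0.26 of the Kcnj2 promoter lay above the promoter median. None of the 4 sites reached a 2-fold difference. Among shared peaks, 7.79% were at least 2-fold higher in the deletion and 0.071% in WT. By pileup over background the median log2 ratio was −0.03, against −0.01 over all shared peaks.

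The other 11 deletion sites had no WT peak. The WT list could not show a pileup of 3 tags or fewer, which is 8.31 times background. At 2 of the 11 sites the Poisson interval of the deletion lay above that limit, 32.1 kb before Kcnj16 with 19.2 (9.91 to 33.5) and at −9.91 kb from Kcnj2 with 20.8 (11.1 to 35.5). When the count of WT was also given its error, the interval of the ratio excluded 1 at 0 of the 11 sites. The absence of a WT peak at these sites was thus not a measured difference at this depth.

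The inward rectifier family set the pair beside genes of the same function. Of 15 Kcnj genes, 3, 7, 5 and 8 had a promoter peak, or 20%, 46.7%, 33.3% and 53.3%. Each share was below the 58.6%, 64.8%, 62% and 67.8% of all promoters. The median fold enrichment of the called members was 8.02, 12.2, 9.56 and 8.19, against 12.2, 17.6, 12.7 and 12.4 over all called promoters.

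Kcnj2 was 1 of 3 members called in every library. The others were Kcnj8, the pore of the vascular ATP-sensitive channel, with a fold enrichment of 8.02, 8.46, 9.06 and 11.97, and Kcnj10, which encodes Kir4.1, the partner of Kir5.1, with 7.18, 23.3, 9.56 and 13.5. Kcnj2 was the highest of the 3 in each library. In these lists, therefore, Kcnj10 had an open promoter and Kcnj16, its heteromer partner, did not have a called one.

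Kcnj11, the pore of the ATP-sensitive channel of beta cells, was called in 3 libraries, with 15.4, 10.8 and 9.49 in Cho replicate 2, WT and the deletion. Kcnj4, a close relative of Kcnj2 in the strong rectifier group, was called in the same 3, with 7.19, 4.18 and 6.90. Kcnj6, a G protein-gated channel gene, was called in Cho replicate 2 (12.2) and the deletion (6.15). Kcnj1 of the kidney was called in Cho replicate 2 alone (5.75), and Kcnj3 and Kcnj5, both G protein-gated, in the deletion alone. Kcnj9, Kcnj12, Kcnj13, Kcnj14, Kcnj15 and Kcnj16 had no promoter peak in any library. Kcnj12, a strong rectifier like Kcnj2, had 37 CpG in its promoter window and was called in none. Of the 7 members with 10 CpG or fewer, all were called in at most 1 library, and of the 8 with 11 or more, 6 were called in at least 2, a division chosen after the values were seen.

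**Figure D5:**
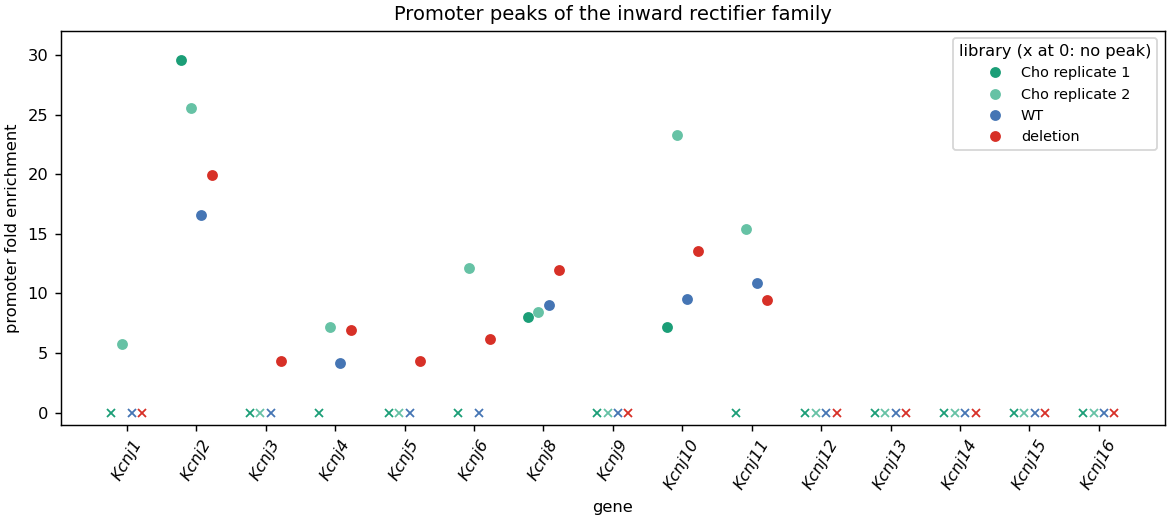
Promoter fold enrichment (vertical axis) of each of the 15 inward rectifier genes (horizontal axis) in the 4 libraries, with a cross at 0 where no peak was called. Kcnj2 is the highest gene in all 4 libraries, and 6 genes including Kcnj16 have crosses in all 4.

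Of 5 genes for proteins that bind these channels, Dlg1, a scaffold of Kir2 channels, was called in all libraries with a fold enrichment of 9.29, 22.7, 13.6 and 14.9. Flna, an actin crosslinker that binds Kir2.1, was called in all with 3.38, 2.84, 3.10 and 3.41. Abcc9, the sulfonylurea receptor of the Kcnj8 channel, was called in 3, with 2.96 and 5.19 in the Cho replicates and 3.69 in the deletion. Abcc8 and Dlg4 had no peak.

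The nearest protein-coding genes on either side were open almost throughout. On the far side from Sox9, Map2k6, a kinase of the p38 pathway with its TSS at −667 kb from that of Kcnj2, had a promoter fold enrichment of 15.2, 39.2, 19.99 and 21.5. Abca5, a lipid transporter gene at −728 kb, had 14.4, 25.5, 10.9 and 11.4. Abca6 at −814 kb had 5.07 and 9.13 in the Cho replicates, 6.15 in the deletion and no WT peak. On the other side, Sox9 had 18.6, 11.8, 9.47 and 8.68, Sstr2, a somatostatin receptor gene, had 11.4, 14.3, 10.2 and 13.8, and Slc39a11, a zinc transporter gene, had 7.18, 9.47, 10.2 and 9.74.

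Kcnj16 was thus the only one of these 8 genes with no promoter peak in any library, a pattern shown by 28.2% of all promoters. Kcnj2 had a higher fold enrichment than Sox9 in each library. By pileup over background, however, the Sox9 promoter had 31.4, 96.1, 102 and 91.1 against 50.4, 81.8, 91.4 and 92.7 at Kcnj2, so the order held in Cho replicate 1 and the deletion and turned in Cho replicate 2 and WT.

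The genes whose promoter pattern was most like that of Kcnj2 were found among the 9539 called in all libraries, by Euclidean distance in log2 fold enrichment over the 4 libraries. They were Gdap2 and Wdr3 at 0.107, which had the same values (30.4, 27.3, 16.8 and 19.8), then Cep152 at 0.116, Tab3 at 0.139 and Cr1l at 0.147. Kcnj16 had no value to compare.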

How the data were processed

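ATAC-Seq was measured in 4 libraries of mouse rib chondrocytes, grouped by their labels into Cho (2 replicates), WT (1) and the deletion (1). Per the study methods and labels, the authors preprocessed reads with fastp, aligned them with Bowtie2 2.4.4, removed duplicates with Picard (2.20.7 in the labels, while the methods give another version), used SAMtools 1.9 and called peaks in each library with MACS2 2.2.4 at a q-value of 0.05. Each deposited peak has a fold enrichment, the ratio of its summit pileup to a local background after adding 1 to each. The authors' lists also hold −log10 p-values and −log10 q-values, and a deposited score, a rounded multiple of the −log10 q-value, which was not used. The submitters name mm9 for all lists. Read so, the nearest Cho replicate 2 summit lay 8368 bp from the Kcnj2 TSS. Read as GRCm38 it lay within the promoter window, so that list was read with RefSeq GRCm38 positions and the others with GENCODE NCBIM37 positions.

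The members, gene lists and motifs were chosen with earlier results of these data known. Each interval was counted once, at its highest fold enrichment, which merged 11573 further summits in Cho replicate 1. The pileup at each summit was worked out as the whole number whose Poisson p-value and fold enrichment match the deposited pair, with a tolerance of 0.001, for 99.8% of peaks in Cho replicate 1 and 100% in the others. The solution was tested on simulated data. The commonest background of a library, over its smallest peak width, gave tags per Mb. Overlaps needed 1 bp. Intervals are 95% exact Poisson, exact binomial (Clopper-Pearson) or, for ratios, conditional binomial, and cover counting error only. The genes named were the pair, the 3 nearest genes on each side, the Kcnj family, 5 partners of the channels and the 5 genes most like Kcnj2. With 1 library in WT and in the deletion, no test was run. Alternatives changed the threshold, windows, transcript starts, overlap and measure. Python 3.11.15, numpy 2.4.6, pandas 2.3.3, scipy 1.17.1 and matplotlib 3.10.9 were used.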

Additional observations from a re-analysis of the deposited data

How the results depend on the processing

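Of the values recomputed under each alternative, 55 kept their direction and, for counts, stayed within 1.5 times, 8 moved and 1 turned. As pileup over library background, the Kcnj2 promoter was at 50.4 and 81.8 in the Cho replicates, 91.4 in WT and 92.7 in the deletion, and the Cho mean was 66.1, which is another unit than fold enrichment. By the same measure the median log2 ratio of the deletion to WT at the shared sites turned to -0.029, while that of all shared peaks moved from 0.28 to −0.01, so the turn is not particular to these sites, and by −log10 q-value it was 0.71, against 0.76 over all shared peaks. Without each Cho replicate in turn, the Cho value at the Kcnj2 promoter ran from 25.6 to 29.6. At a q-value below 1e-05 the deletion kept 9 peaks in the window, and 44.4% of them overlapped a WT peak. With equal numbers of the strongest peaks, the ratio of deletion to WT peak numbers was 1.17 and 57.1% of deletion peaks there overlapped a WT peak. The 49.4% over all deletion peaks belongs to the full lists. No background is given for either setting, so these shares cannot be placed above or below one. The Kcnj16 promoter had 0 peaks under every definition, including any transcript start with a 2 kb window, which was chosen after seeing the data, as was joining summits within 100 bp, which gave 21 sites with 4 still in all libraries. No paired analysis was possible because each genotype is represented here by a single library. Depth limits what can be said of uncalled sites, most of all in WT.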
